A study of Mus musculus with 6 samples.

Results

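The homeobox, forkhead and Sox genes are transcription factor families that set position and cell identity in the embryo, and a few of them also act in blood-forming stem cells. Members were all genes whose probe set on the array carries exactly 1 symbol starting with Hoxa to Hoxd, Pbx, Lhx, Nkx, Fox or Sox in numbered form, or with that of the Six2 and Six3 family. The rule found 54 genes on 55 probe sets, out of 10366 genes with such a probe set and 14610 probe sets tested. They comprise 18 Hox symbols, 8 other homeobox genes (Pbx3, Lhx6, 4 Nkx genes, Six2 and Six3), 18 Fox symbols and 10 Sox symbols, and 4 of the 54 are long non-coding RNAs (Foxl2os, Hoxd3os1, Sox1ot and Sox6os). Each gene is represented by its brightest probe set. Only Foxn3 had a second one.

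Expression was measured in LKS-Slam cells, mouse bone marrow cells sorted by flow cytometry on markers that strongly enrich for hematopoietic stem cells. One group is labelled Zeb2-KO (Zeb2Δ/ΔMx1-Cre, made from Zeb2 fl/fl Mx1-Cre mice), the other C57Bl/6 WT. Mx1-Cre is a recombinase under an interferon-inducible promoter and is not specific to stem cells. Mice of both groups received pIC, which induces interferon, when 6 weeks old, and marrow was collected 8 weeks after that, at 14 weeks. No source used here says whether WT mice carried Mx1-Cre or floxed alleles. Each group has 3 arrays from separate bone marrow samples. Zeb2 is a zinc-finger repressor, and the comparison asks how gene expression in stem cells differs once it is removed in the adult.

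Hox genes encode proteins that bind DNA through a homeodomain, and they lie in 4 clusters whose gene order follows the body axis. In blood stem and progenitor cells the Hoxa and Hoxb clusters are known to be active and to work with Pbx and Meis cofactors, whereas Nkx, Lhx and most related homeobox factors act mainly in solid organs and the nervous system. Forkhead factors include Foxo1 and its relatives, which keep stem cells quiescent when growth factor signalling is low, and Foxm1, which drives genes of mitosis. Sox factors bind DNA through an HMG box. Sox17 is known for fetal blood stem cells and endothelium, and Sox6 for red cell maturation.

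Values are log2 of the deposited intensities, and every difference is that of the Zeb2-KO arrays minus WT. Zeb2 itself did not check the deletion. Its single probe set read 7.79, 9.13 and 8.96 where the label says Zeb2-KO, against 6.58, 7.51 and 7.34 for WT, so it lay higher where the gene should be deleted (difference 1.48, SE 0.40, limma adjusted p = 0.581). The difference was 0.77 with the spread of each array in the model and ran from 1.20 to 1.90 with 1 array left out. It passed with array weights alone (1.67, limma adjusted p = 0.0181), a fit for which limma reported that convergence was not reached. No source used here says whether that probe set lies in the deleted part, so all directions rest on the labels. Among genes of the sorting gate, Kit read 8.998 to 10.23 over the 6 arrays and lay above the upper quartile of all tested probe sets (7.59) in each. Slamf1 read 8.31, 9.01 and 8.30 in Zeb2-KO and 5.76, 8.02 and 7.94 in WT. It lay higher without overlap (difference 1.30), as did Kit (0.53). Cd48 lay lower without overlap (-1.02), at 6.79, 6.86 and 5.72 against 7.19, 7.70 and 7.55. None of these passed (limma adjusted p from 0.656 to 0.673). Marker lists of other cell types are given as list means, each the mean log2 value of an array. All 6 measured genes of the monocyte and dendritic cell list lay lower (list means 7.18 to 7.80 in Zeb2-KO, 7.86 to 8.39 in WT). They are Cd74, H2-Ab1, H2-Eb1, Ctss, Irf8 and Itgax. All 8 measured B cell genes, given below, lay lower too, and which cells the 6 genes came from was not tested. Of 5 megakaryocyte genes 4 lay higher (8.22 to 9.06 against 6.90 to 7.71). Of 5 granulocyte genes 3 lay higher (5.82 to 6.62 against 5.75 to 5.92). Of 4 T and NK cell genes 3 lay lower (4.79 to 5.10 against 4.89 to 5.26, all 4 dim). Of the 9 measured gate and stem cell genes 4 lay higher and 5 lower, so their list means mix both directions (7.63 to 8.10 against 7.56 to 8.16). Beside Slamf1, Kit and Cd48, Gata2 (0.35, without overlap) and Flt3 (0.69) lay higher. Procr (-0.45, without overlap), Cd34 (-0.69), Mecom (-0.38) and Hlf (-0.21) lay lower. Without overlap 3 of the 9 were higher (33.3%, against 6.9% of all probe sets) and 2 lower (22.2%, against 6.26%). The part of these cells in the members' values was not tested. Median intensity per array ran from 94.3 to 99.2. Array values carry no read depth, and the number of arrays limits the precision. In sorted bulk cells, fewer cells of a type and less RNA per cell cannot be told apart.

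None of the 54 genes passed the test, which with 3 arrays a group does not show that they did not differ. No member passed a limma adjusted p of 0.05 over all 14610 probe sets (smallest adjusted p = 0.673), where 2 probe sets in all, 0.0137%, passed. At an unadjusted limma p under 0.05 there was 1 member higher, Foxm1 (1.85% of members), and none lower. Over all probe sets 5.69% were higher and 1.33% lower at that p. The members' differences ran from -0.54 to 0.66, with standard errors between 0.27 and 0.47. In 29 of the 54 genes the difference was smaller than its own standard error.

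Most members had a small negative offset, which was least common in Hoxa (3 of 5 genes, median -0.0071) and Fox (12 of 18). The difference was below 0 in 46 of 54 genes (85.2%), against 55.4% of all tested probe sets, and the members' median was -0.27 against -0.089 over all probe sets. Adjustment for array spread entered the interquartile range of an array's log2 values as a limma covariate. It left 20 of 54 lower (37.0%, against 51.0% of all probe sets under that fit) and a median of 0.028. With 1 array left out the median ran from -0.40 (Zeb2-KO replicate 1) to -0.14 (Zeb2-KO replicate 2), and it was -0.15 for WT replicate 1. Most members are dim. In 36 of the 54 the mean log2 value was below the median of all tested probe sets (6.63), and all 36 lay lower, with a median of -0.27 (30 of 36 after quantile normalization, 11 of 36 after adjustment for array spread). Of all probe sets below the median, 74.3% lay lower, with a median of -0.23 (66.9% after quantile normalization, 51.8% after adjustment for array spread). The dim members and the dim probe sets in general thus had nearly the same offset. Among the 18 brighter members 10 lay lower and 8 higher, with a median of -0.24. Of all probe sets at or above the median 36.5% lay lower, with a median of 0.18. All 8 members with a positive difference were in this brighter class (Foxj3, Foxk2, Foxm1, Foxn3, Foxp1, Foxp4, Hoxa5 and Hoxa9).

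**Figure D1:**
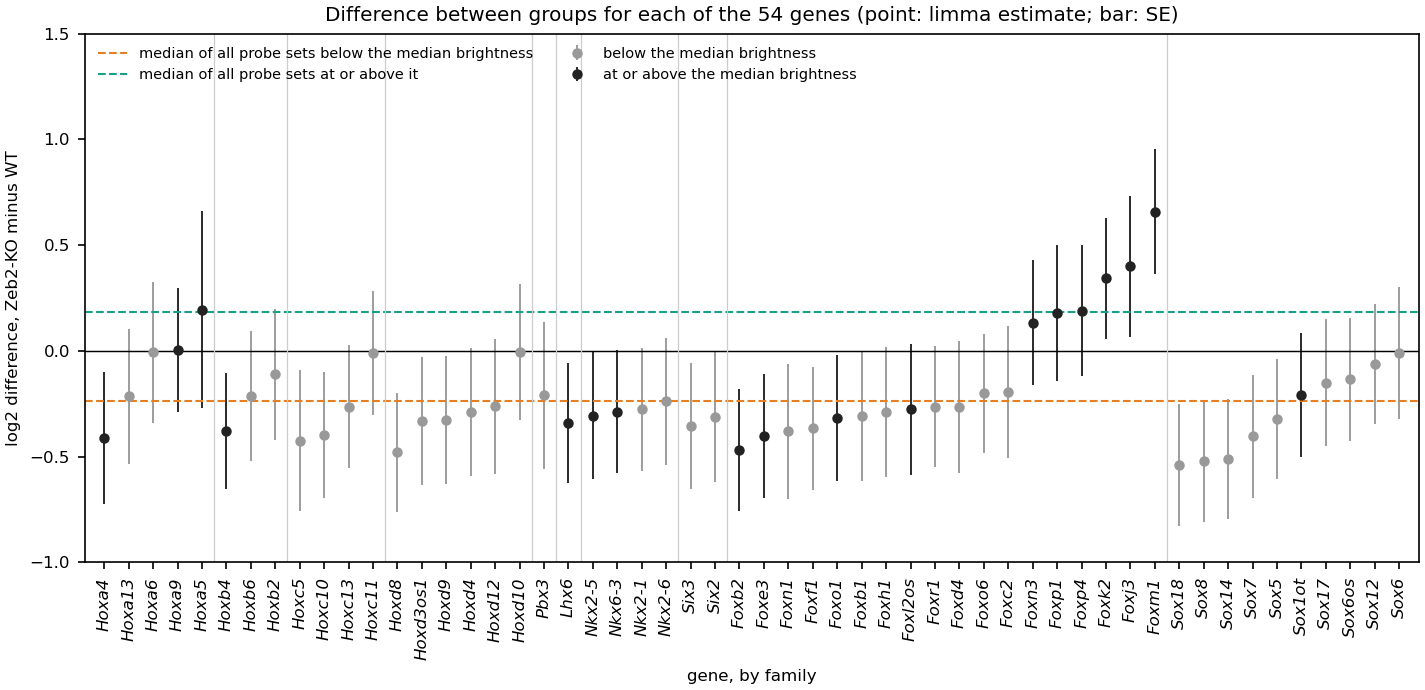
Log2 difference between the Zeb2-KO arrays and WT (y axis) for each of the 54 genes, grouped by family (x axis). Points are limma estimates and bars their standard errors, grey for genes below the median brightness of all tested probe sets and black for the others. Dashed lines mark the median difference of all dim probe sets (-0.23) and of all brighter ones (0.18). Grey points lie below 0 throughout, and Foxm1 is the highest at 0.66.

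**Figure D2:**
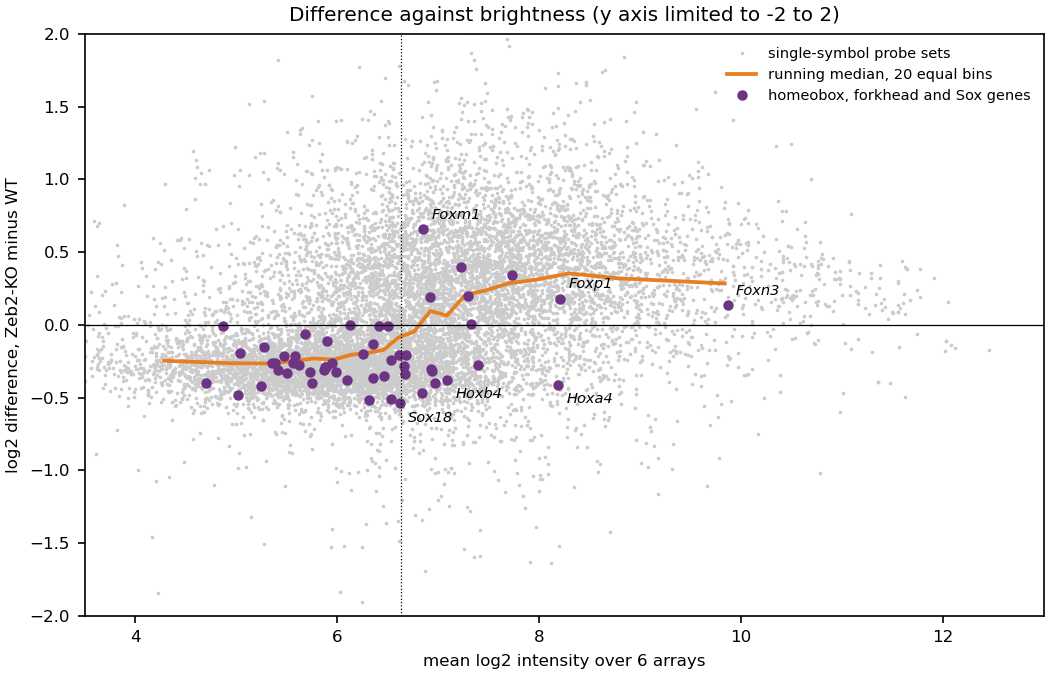
Log2 difference (y axis) against mean log2 intensity over the 6 arrays (x axis) for all single-symbol probe sets (grey), with a running median (orange) and the 54 genes (purple). The dotted line is the median brightness, 6.63. The running median is below 0 at low intensity and above 0 at high intensity, and most of the 54 genes lie in the low part.

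The lowest and the highest values of the members gathered in 2 arrays. Of the 54 genes, 37 were lowest in Zeb2-KO replicate 2 and 31 were highest in WT replicate 1, and 27 were both. Over all tested probe sets 32.5% were lowest and 34.5% highest in these arrays. Of the 36 dim members 28 were lowest in the first and 23 highest in the second, where 48.4% and 48.9% of all dim probe sets were. The median of the 36 dim members was 6.01, 5.44 and 5.67 in the Zeb2-KO arrays, in replicate order, and 6.26, 5.79 and 5.91 for WT. Zeb2-KO replicate 1 thus lay among the WT arrays, and it exceeded WT replicate 2 in 30 of the 36 dim genes. The interquartile range of each array's log2 values moved the opposite way, at 1.83, 2.40 and 2.11 in Zeb2-KO and 1.59, 2.03 and 1.77 in WT. Zeb2-KO replicate 2 had the widest spread and WT replicate 1 the narrowest. The range comes from the same values as the differences and averaged 2.11 in Zeb2-KO and 1.79 in WT. A model that holds it can therefore take up part of a difference between the groups. With that range in the model, 28 of the 46 lower genes had a positive difference, 2 of the 8 higher ones a negative one, and the smallest unadjusted limma p of any member was 0.114.

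**Figure D3:**
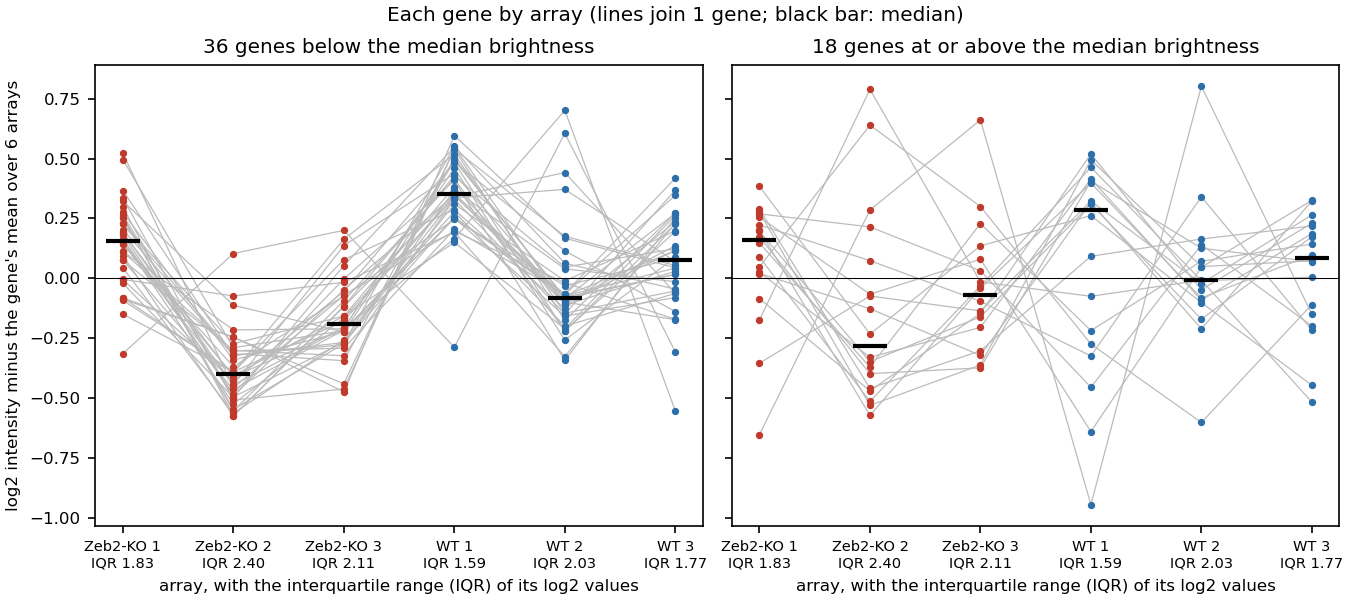
Log2 intensity minus the gene's own mean over the 6 arrays (y axis) in each array (x axis, with the interquartile range of that array), for the 36 members below the median brightness (left) and the 18 others (right). Grey lines join 1 gene, red points are Zeb2-KO, blue points WT and black bars the median. On the left 28 of 36 genes are lowest in Zeb2-KO replicate 2, 23 are highest in WT replicate 1 and 20 are both. On the right the genes do not share 1 order.

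**Figure D4:**
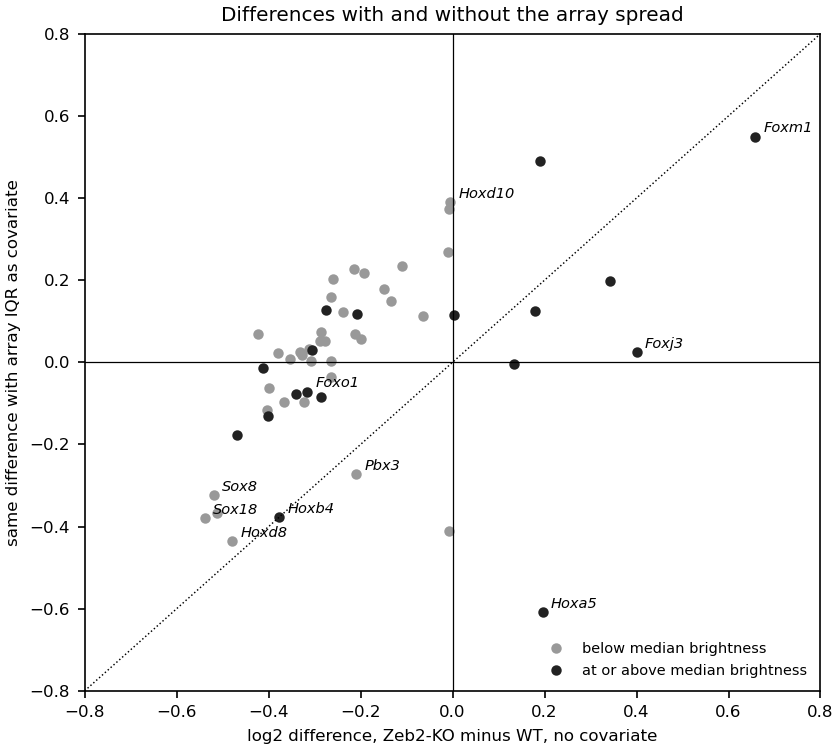
Log2 difference of each gene before (x axis) and after (y axis) adjustment for array spread, grey below and black at or above the median brightness. The dotted line marks equal values. Most points left of 0 move up to around 0, while Foxm1 (0.55), Hoxb4 (-0.38), Hoxd8 (-0.44), Sox18 (-0.38), Sox14 (-0.37) and Sox8 (-0.32) keep their sign, and Hoxa5 moves to -0.61.

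In 7 of the 54 genes the 3 Zeb2-KO values did not overlap the 3 WT values. Foxm1 was the 1 higher gene (1.85% of members, against 6.9% of all probe sets and 10.4% of the brighter ones). The 6 lower genes were Foxb2, Hoxb4, Hoxd8, Sox14, Sox18 and Sox8 (11.1% of members, against 6.26% of all probe sets). Hoxd8, Sox14, Sox18 and Sox8 are among the 36 dim members, where 9.01% of all dim probe sets were lower without overlap, and Foxb2 and Hoxb4 are among the 18 brighter ones, where 3.52% of all such probe sets were. Zeb2 is known to bind the E-box core CACCT, and RefSeq windows from 250 bases before to 50 after a gene's start (build GRCm38.p6) were searched for it on both strands. Of the 54 genes 35 had a window, 44 windows in all. CACCT was in 17 of the 44 (38.6%), against 51.9% of all 32851 windows of that length, and CACCTG, which contains CACCT, was in 7 (15.9%), against 20.2%. Of the 6 lower genes, 5 had a window. Hoxb4 had 2 matches to CACCT and Sox14 had 3, while Foxb2, Hoxd8 and Sox8 had none. A match describes the letters only and is not a binding site. The windows of Hoxb4 (chr11:96318017-96318316, plus strand), Sox14 (chr9:99876121-99876420, minus strand) and Sox8 (chr17:25570637-25570936, minus strand) are shown 5′ to 3′ on the gene's strand because these are separated genes with and without the motif. Capitals mark CACCT or its reverse complement AGGTG.
Hoxb4 promoter: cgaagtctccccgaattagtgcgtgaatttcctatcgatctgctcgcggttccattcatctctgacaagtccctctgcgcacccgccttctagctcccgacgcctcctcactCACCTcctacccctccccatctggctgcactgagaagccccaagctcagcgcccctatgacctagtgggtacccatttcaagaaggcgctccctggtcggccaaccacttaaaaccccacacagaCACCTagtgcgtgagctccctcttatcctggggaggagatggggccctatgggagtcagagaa
Sox14 promoter: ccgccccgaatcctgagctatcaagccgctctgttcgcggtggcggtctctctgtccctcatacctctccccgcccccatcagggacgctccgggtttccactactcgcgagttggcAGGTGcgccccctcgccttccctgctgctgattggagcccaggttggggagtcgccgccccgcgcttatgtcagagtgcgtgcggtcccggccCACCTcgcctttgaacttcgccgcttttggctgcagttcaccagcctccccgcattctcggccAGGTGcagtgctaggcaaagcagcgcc
Sox8 promoter: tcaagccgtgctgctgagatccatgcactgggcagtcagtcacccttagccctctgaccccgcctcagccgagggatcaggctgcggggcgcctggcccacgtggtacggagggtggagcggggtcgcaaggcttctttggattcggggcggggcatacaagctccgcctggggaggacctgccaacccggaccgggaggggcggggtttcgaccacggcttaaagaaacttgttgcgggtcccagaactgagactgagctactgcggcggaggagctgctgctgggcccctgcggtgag
In Hoxb4 the matches start 138 and 13 bases before the gene's start. In Sox14 they start 133 and 40 bases before it and at base 24 after it, and the first and the last of these are also CACCTG.

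The Hox genes showed no difference that passed the test. Of the 18 Hox symbols 16 lay lower and 2 higher, with a median of -0.26, and after adjustment for array spread 6 lay lower and the median was 0.046. The Hoxd and Hoxc members were all below the median brightness, and each lay lower (6 of 6 and 4 of 4), whereas after adjustment for array spread 1 of 6 and 1 of 4 did, and after quantile normalization 5 of 6 and 3 of 4. Genes at the 3′ end of the clusters (paralogs 1 to 4) had a median of -0.33, the middle ones (5 to 8) -0.21 and the 5′ ones (9 to 13) -0.24. Their ranges overlapped.

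Hoxa9, a driver of stem and progenitor self-renewal and of leukaemia, was as near to equal as any member. It read 7.48, 6.96 and 7.56 in the Zeb2-KO arrays and 7.11, 7.40 and 7.47 in WT. The groups overlapped fully, and the difference was 0.0028 (SE 0.29, limma adjusted p = 0.996). Its sign turned with quantile normalization (-0.12), with centred arrays (-0.015) and with any of 3 single arrays left out (-0.070 and -0.11 for Zeb2-KO replicates 1 and 3, -0.11 for WT replicate 1). Hoxa5, which acts in myeloid and erythroid commitment, varied most within groups, at 6.65, 7.59 and 7.96 in Zeb2-KO and 6.35, 8.10 and 7.15 in WT. Its neighbour Hoxa6 read 6.19, 6.61 and 6.71 against 6.22, 7.11 and 6.20. Both genes were highest in WT replicate 2 and next highest in Zeb2-KO replicate 3. The differences were 0.20 (SE 0.47) for Hoxa5, which was -0.61 after adjustment for array spread, and -0.0071 (SE 0.33) for Hoxa6. The Hoxa5 value turned to -0.23 when WT replicate 1 was left out and to -0.086 when Zeb2-KO replicate 3 was, and it ran up to 0.65 when WT replicate 2 was. Hoxa4, at the 3′ side of the cluster, was the brightest Hox probe set and read 8.46, 7.66 and 7.83 against 8.68, 8.24 and 8.26. Zeb2-KO replicate 1 lay within the WT range, and the difference of -0.41 (SE 0.31, adjusted p = 0.673) was -0.014 after adjustment for array spread. Hoxa13, a limb and hindgut gene, lay at -0.21.

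Hoxb4, known for expanding stem cells when overexpressed, was lower without overlap. It read 6.73, 7.01 and 6.95 in the Zeb2-KO arrays (6.90 ± 0.15, SD, n = 3) and 7.41, 7.07 and 7.35 in WT (7.28 ± 0.18). The highest Zeb2-KO array and the lowest WT array, both replicate 2, were close. The difference of -0.38 (SE 0.27, 1.30-fold lower) did not pass (adjusted p = 0.673), and it ran from -0.53 to -0.29 over the 16 alternatives, -0.38 among them after adjustment for array spread. Its lowest value was in Zeb2-KO replicate 1 and its highest in WT replicate 1. The other Hoxb genes, Hoxb2 and Hoxb6, lay at -0.11 and -0.21, and both were lowest in Zeb2-KO replicate 2 and highest in WT replicate 1. Hoxb6 read 5.38, 5.08 and 5.64 against 5.99, 5.33 and 5.42, with overlap.

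Hoxd8, a dim gene of the Hoxd cluster, read 4.87, 4.63 and 4.84 in Zeb2-KO and 5.36, 5.46 and 4.96 in WT. Its groups did not overlap, and the difference was -0.48 (SE 0.28, adjusted p = 0.673). The remaining Hoxd and Hoxc members lay between -0.42 (Hoxc5) and -0.0046 (Hoxd10), and all of them overlapped between groups.

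The other homeobox genes lay lower throughout, in a narrow band. All 8 had negative differences, from -0.35 (Six3, of forebrain and eye) to -0.21 (Pbx3), with a median of -0.30, and after adjustment for array spread 3 of 8 lay lower. Pbx3, a cofactor that Hox proteins bind DNA with and the member of this set with a known role in blood cells, read 6.73, 6.40 and 6.41 in Zeb2-KO and 6.78, 7.32 and 6.06 in WT. WT thus held both its highest and its lowest value, and the difference was -0.21 (SE 0.35, adjusted p = 0.761), turning to 0.089 without WT replicate 2. Nkx2-1 of lung and thyroid (-0.28), Nkx2-5 and Nkx2-6 of the heart and pharynx (-0.31 and -0.24), Nkx6-3 of the stomach (-0.29), Six2 of kidney progenitors (-0.31) and Lhx6 of cortical interneurons (-0.34) are genes of tissues other than blood. Their groups all overlapped.

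Among the forkhead genes, Foxm1 stood furthest apart. This activator of mitotic genes read 6.90, 7.49 and 7.15 in the Zeb2-KO arrays (7.18 ± 0.30, SD, n = 3) and 6.58, 6.25 and 6.74 in WT (6.52 ± 0.25). Every Zeb2-KO array lay above every WT array. The difference of 0.66 (SE 0.30, 1.58-fold) reached an unadjusted limma p of 0.0478 and an adjusted p of 0.673. It was 0.55 after adjustment for array spread and between 0.50 and 0.80 with 1 array left out, positive in all 16 alternatives with adjusted p from 0.103 to 0.988. The unadjusted p was 0.0289 without Zeb2-KO replicate 1 and above 0.05 with any other array left out, from 0.0588 (WT replicate 3) to 0.157 (Zeb2-KO replicate 2), as it was with quantile normalization (0.0527) and adjustment for array spread (0.114).

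Most known Foxm1 target genes lay on the same side as Foxm1 before adjustment for array spread, without any passing. Of 16 listed genes 13 were measured, and 12 lay higher, with a median of 0.44 against -0.089 over all probe sets. Of the 13, 11 were at or above the median brightness, where 36.5% of all probe sets lay lower and their median was 0.18. After adjustment for array spread the median of the targets was -0.080, while Foxm1 was at 0.55. Without WT replicate 1 or Zeb2-KO replicate 2 the median of the targets was 0.19 and 0.25. At an unadjusted p under 0.05 there was 1 of the 13 (7.69%, against 5.69% of all probe sets higher), the checkpoint kinase gene Bub1. It read 7.49, 8.35 and 7.93 in Zeb2-KO and 5.57, 8.17 and 6.22 in WT (difference 1.27, SE 0.56). Ccnb2, a mitotic cyclin, lay at 0.73 and Aurkb, a kinase of chromosome segregation, at 0.44, while Cdc25b lay at -0.45. WT replicate 1 was the lowest array for the list, with a mean log2 value of 6.96 against 7.48 to 8.34 elsewhere.

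Foxo1, which restrains cycling in stem cells and is also required in B cells, read 7.23, 6.48 and 6.63 in Zeb2-KO and 7.03, 7.10 and 7.15 in WT. Zeb2-KO replicates 2 and 3 lay below WT and replicate 1 above it, and the difference was -0.32 (SE 0.30, adjusted p = 0.676), or -0.071 after adjustment for array spread. All 8 measured of 10 listed B cell genes lay lower (median -0.87), and the mean log2 value of the list was 6.47 to 7.24 in Zeb2-KO and 7.33 to 8.37 in WT, lowest in Zeb2-KO replicate 2. By array the list mean was 7.24, 6.47 and 6.97 in Zeb2-KO and 8.37, 7.33 and 7.96 in WT. Within Zeb2-KO the list and Foxo1 were both highest in replicate 1 and lowest in replicate 2. Within WT the list was highest in replicate 1, where Foxo1 was lowest. The part of B cells in the Foxo1 values was not tested. Of 23 listed FoxO target genes 16 were measured. There were 9 higher and 7 lower. At an unadjusted p under 0.05 there was 1 each way (6.25% each, against 5.69% of all probe sets higher and 1.33% lower). The median was 0.063, which was -0.30 after adjustment for array spread and -0.019 with quantile normalization. Leaving out Zeb2-KO replicates 1, 2 and 3 in turn gave 0.32, -0.073 and 0.13, and WT replicates 1, 2 and 3 gave -0.21, 0.27 and 0.098. Gadd45a, a stress-induced growth arrest gene, lay at 0.86 and S1pr1, a lymphocyte egress receptor, at -0.77, both without overlap. They and Pik3ip1 (0.53, also without overlap), an inhibitor of PI3 kinase, had the smallest p of that list. Without overlap 2 of the 16 were higher (12.5%, against 6.9% of all probe sets and 10.4% of the brighter ones). There was 1 lower (6.25%, against 6.26% of all probe sets). None passed (adjusted p from 0.623 to 0.673 for these 3). Foxo6 lay at -0.20.

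None of the bright forkhead genes passed the test. Foxn3, a repressor tied to checkpoint control, had the brightest probe set of all members and read 10.09, 9.94 and 9.77 against 9.54, 10.21 and 9.65. WT held its highest and lowest values, and the difference was 0.13 (SE 0.30, adjusted p = 0.815). Its second probe set read 6.94, 6.94 and 7.95 against 6.68, 8.03 and 7.88, a difference of -0.25 (SE 0.42). The 2 probe sets disagree in sign, with both differences under their standard errors. Foxp1, needed for B cell development, read 8.46, 8.14 and 8.29 against 7.57, 8.25 and 8.53. It was lowest in WT replicate 1, and the difference of 0.18 (SE 0.32) was -0.096 without that array and -0.035 with quantile normalization. Foxk2, a widely expressed repressor, read 8.01, 7.95 and 7.77 against 7.28, 7.88 and 7.54, a difference of 0.34 (SE 0.29, adjusted p = 0.673). Foxj3 (0.40) and Foxp4 (0.19) were the other higher forkhead genes.

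The remaining 12 forkhead symbols, Foxo1 among them, lay lower, from -0.47 to -0.19; over all 18 the median was -0.26, and 0.039 after adjustment for array spread. Foxb2, a gene of the developing nervous system, was the lowest and its groups did not overlap, at 6.75, 6.37 and 6.69 against 7.36, 6.79 and 7.07. The others include Foxe3 of the lens (-0.40), Foxn1 of thymic epithelium (-0.38), Foxf1 of visceral mesenchyme (-0.37), Foxh1, a partner of Smad proteins (-0.29), and Foxc2 of lymphatic vessels (-0.19).

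All 10 Sox symbols lay lower, with a median of -0.27, while after adjustment for array spread 5 of 10 did and with quantile normalization 7 of 10. The 3 genes furthest down had groups that did not overlap. Sox18, of endothelium and lymphatic vessels, read 6.53, 6.38 and 6.15 in Zeb2-KO (6.35 ± 0.19, SD, n = 3) and 7.22, 6.79 and 6.67 in WT (6.89 ± 0.29). Its difference of -0.54 (SE 0.29, 1.45-fold lower) was the lowest of all members and did not pass (adjusted p = 0.673).

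Sox14, a repressor of the developing nervous system, read 6.45, 6.28 and 6.09 against 7.07, 6.71 and 6.58, a difference of -0.51 (SE 0.28). Sox8, of neural crest and gonad, read 6.36, 5.75 and 6.06 against 6.65, 6.69 and 6.39, a difference of -0.52 (SE 0.29). In Sox8 the gap between the groups was small, 6.36 in the highest Zeb2-KO array against 6.39 in the lowest WT array. All 3 stayed negative in every alternative in which they were tested, from -0.65 to -0.37 for Sox18, -0.61 to -0.37 for Sox14 and -0.67 to -0.32 for Sox8. No adjusted p in these alternatives was under 0.0845.

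Sox17 and Sox7, relatives of Sox18 in the same subgroup, overlapped between groups. Sox17 read 5.64, 4.95 and 5.01 in Zeb2-KO and 5.53, 5.20 and 5.32 in WT. Its highest and its lowest value were thus both in Zeb2-KO, and the difference of -0.15 (SE 0.30) turned to 0.18 after adjustment for array spread and 0.010 with quantile normalization. Sox7 lay at -0.40 (SE 0.29). Of 10 listed stromal and endothelial genes 7 were measured, 6 of them lower, and the mean of the list was 6.83 to 7.08 in Zeb2-KO and 6.74 to 7.13 in WT. The 1 higher gene was Fap, a protease of activated fibroblasts, at 8.71 against 5.46 (difference 3.26, limma adjusted p = 0.00133). Without Fap the mean of the other 6 was 6.52 to 6.82 in Zeb2-KO and 6.94 to 7.37 in WT. That split was made after the Fap value was seen and took out the only higher gene. The gap between these ranges follows in part from that choice and carries no weight of its own. Of the other 6, Sparc, a matrix protein gene, was the lowest at -0.99. Pecam1, the endothelial marker among them, lay at -0.21. Their part in the Sox18 values was not tested.

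Sox6, a factor of red cell maturation, read 6.91, 6.13 and 6.20 in Zeb2-KO and 6.67, 6.26 and 6.33 in WT. Both groups were highest in replicate 1, and the difference was -0.0087 (SE 0.31), 0.031 with quantile normalization and 0.37 after adjustment for array spread. The opposite-strand gene Sox6os read 6.58, 6.08 and 6.20 against 6.50, 6.14 and 6.62, a difference of -0.13. All 4 measured of 8 listed erythroid genes lay higher (median 0.96), with list means of 7.71 to 8.62 in Zeb2-KO and 7.16 to 7.29 in WT. Of the 4, 3 were at or above the median brightness, where 36.5% of all probe sets lay lower. Car1 overlapped between groups. The part of erythroid cells in the Sox6 values was not tested. Sox12 read 5.68, 5.61 and 5.67 against 5.88, 5.36 and 5.91, the tightest Zeb2-KO group of the named genes, and lay at -0.063. Its sign turned with quantile normalization (0.041).

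**Figure D5:**
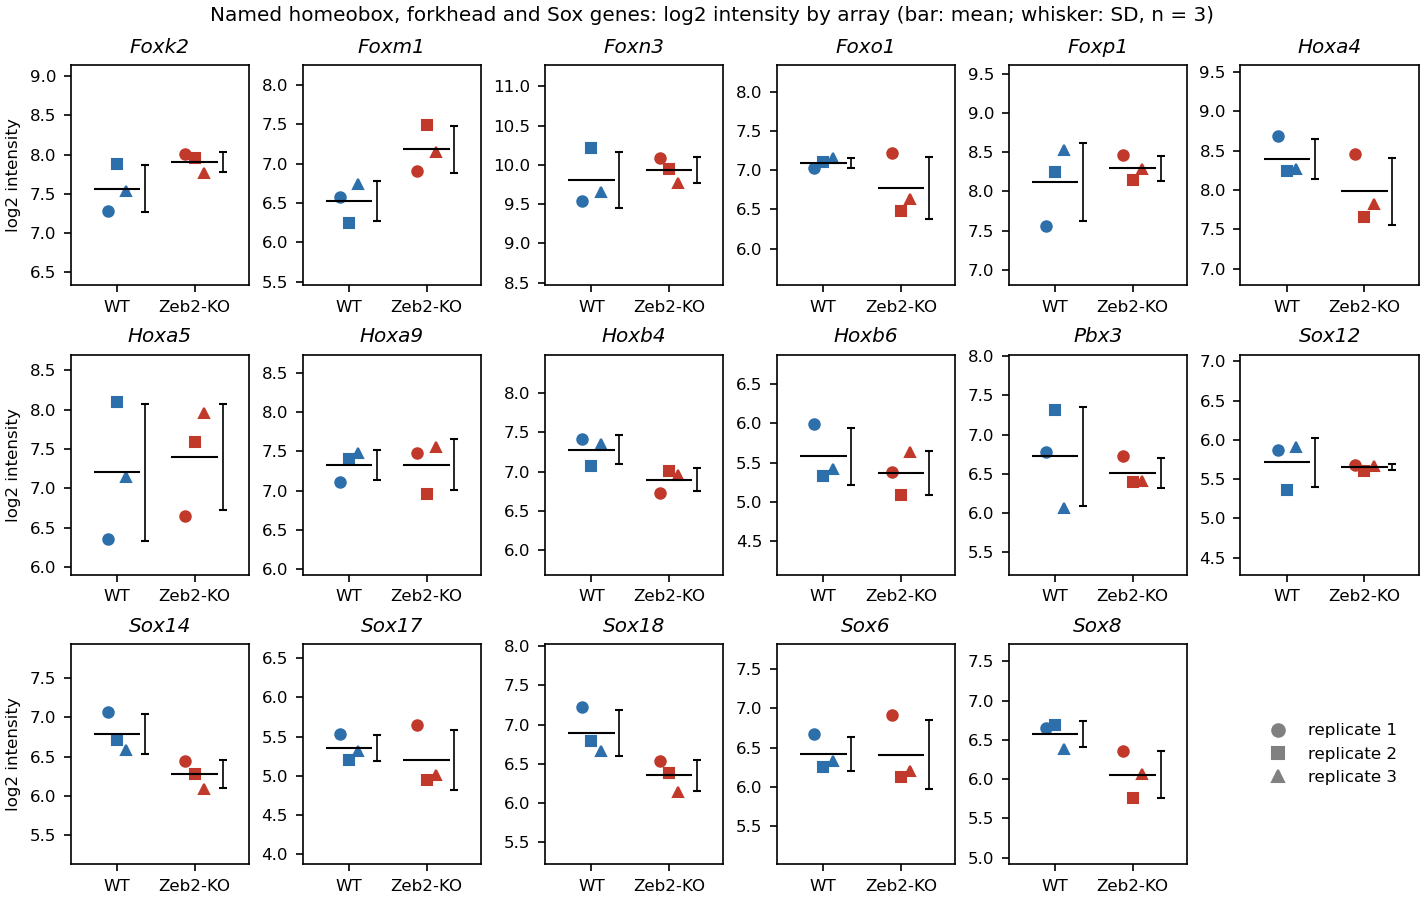
Log2 intensity (y axis, 2.8 log2 units in each panel) of the 17 members named by rule in WT (blue) and Zeb2-KO (red) arrays. Symbols give the replicate, black bars the mean and whiskers the SD of 3 arrays. Foxm1 is higher, and Hoxb4, Sox14, Sox18 and Sox8 are lower in Zeb2-KO without overlap, while the other 12 overlap.

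Cofactors and upstream regulators of these families lay where probe sets of their brightness did. Of 30 listed genes 18 were measured, with 12 higher and 6 lower (33.3%) and a median of 0.18. Of the 18, 16 were at or above the median brightness, where 36.5% of all probe sets lay lower and the median was also 0.18. That median was -0.034 with quantile normalization and 0.040 after adjustment for array spread. Leaving out Zeb2-KO replicate 1 moved it to 0.34, Zeb2-KO replicate 2 to -0.014, WT replicate 1 to 0.0997, WT replicate 2 to 0.32 and WT replicate 3 to 0.091. None passed over all probe sets, and at an unadjusted p under 0.05 there were 2 of 18 higher and none lower, against 5.69% and 1.33% of all probe sets. Eya2, a coactivator that pairs with Six2 and its relatives, read 7.53, 8.06 and 8.10 in Zeb2-KO against 6.90, 6.85 and 6.82, with no overlap (difference 1.04, SE 0.29, adjusted p = 0.581). Mllt3, a fusion partner of MLL in leukaemia that also maintains stem cells, read 9.59, 9.51 and 9.49 against 8.50, 8.69 and 8.82, also without overlap (0.86, SE 0.27, adjusted p = 0.606). Lmo2, a bridging protein of blood transcription factor complexes, read 9.90, 10.02 and 10.04 against 8.91, 9.83 and 9.29, again without overlap (0.64, SE 0.31, adjusted p = 0.673). These were the 3 of 18 higher without overlap (16.7%, against 6.9% of all probe sets and 10.4% of the brighter ones). Pknox2, a relative of Meis proteins, was the 1 gene of the list lower without overlap (5.56%, against 6.26% of all probe sets). It lay at -0.50 and is dim, and 9.01% of all dim probe sets were lower without overlap. Tgif1, a repressor with a related homeodomain, was the lowest of the list at -0.64. Meis1, the Hox and Pbx cofactor, lay at 0.66, with WT replicate 1 lowest at 8.94 and the other 5 arrays between 10.15 and 10.64.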

How the data were processed

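Per the labels' protocols, RNA of sorted LKS-Slam cells was amplified and hybridised to mouse gene arrays. The authors deposited 1 table of probe set intensity values, made with RMA per the submitters' processing notes. The version of RMA is not given in the sources used here. The values lie on a linear scale (4.29 to 9972), so log2 was taken first. Of 20220 probe sets, 5610 with identifiers below the first annotated one were treated as controls and left out. Of the 14610 tested, 11229 carry 1 symbol in the platform annotation, 766 several and 2615 none.

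Tests were two-sided and used lmFit and eBayes of limma 3.58.1 (R 4.3.3), with 4 residual and 6.87 prior degrees of freedom and p adjusted by Benjamini-Hochberg over the 14610 probe sets. SE is limma's. The procedure was tested on 10 simulated sets of 14610 probe sets. The p-values measure the spread between 3 bone marrow samples a group. Named members are those at an unadjusted p under 0.05, those without overlap and at least 0.5 apart, those at or above the upper quartile of brightness, and 30 fixed genes, of which 12 were measured; Foxb2, Hoxd8, other members, Meis1, Pknox2, Tgif1, Fap and Sparc were added after their values were seen. The members and the lists of targets, cofactors and markers were chosen with earlier results of these data known. Lists are described by counts, medians and, per array, mean log2 values, with no test. Promoter windows come from RefSeq. Alternatives were the log2 offset, quantile normalization, median centring, dim probe sets left out, a trended prior, array weights, the replicate block, array spread (interquartile range) as a covariate, the mean of a gene's probe sets, the controls included, and each array left out.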

Additional observations from a re-analysis of the deposited data

How the results depend on the processing

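No member passed the adjusted threshold in any of the 16 alternatives, and none of the 264 values of named members under them did. The sign of a named member changed in 28 of the 264, and 8 of the 17 named members kept their sign throughout. The count of members higher at an unadjusted p under 0.05 was 0 with quantile normalization, centred arrays, dim probe sets left out, a trended prior, adjustment for array spread or the controls included, and 0 to 1 with 1 array left out. The count lower was 12 with array weights, for which limma reported that convergence was not reached (of 54 members, where 15.6% of all probe sets were lower), and 0 to 1 with 1 array left out. With dim probe sets left out, 18 members were tested and 10 lay lower. After adjustment for array spread 20 of 54 lay lower (37.0%, against 51.0% of all probe sets), and the members' median was 0.028. The medians of FoxO and Foxm1 targets were then -0.30 and -0.080. With 1 array left out the FoxO target median ran from -0.21 to 0.32. The cause of these shifts was not tested.

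Signs turned with quantile normalization in Foxn3 (-0.063), Foxp1 (-0.035), Hoxa9 (-0.12), Sox12 (0.041), Sox17 (0.010) and Sox6 (0.031), and with centred arrays in Hoxa9 (-0.015). They turned with array weights in Foxp1 (-0.041) and Hoxb6 (0.094), and with the mean of its probe sets in Foxn3 (-0.058). After adjustment for array spread they turned in Foxn3 (-0.0044), Hoxa5 (-0.61), Hoxb6 (0.068), Sox12 (0.11), Sox17 (0.18) and Sox6 (0.37). With 1 array left out the differences ran from -0.11 to 0.19 in Hoxa9, -0.26 to 0.13 in Sox6, -0.23 to 0.65 in Hoxa5, -0.096 to 0.39 in Foxp1, -0.24 to 0.035 in Sox12 and -0.54 to 0.089 in Pbx3.

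With the replicate number as a block, 3 members were lower at an unadjusted p under 0.05 and 1 higher (of 54, where 8.07% of all probe sets were lower and 9.69% higher under that fit), and none passed (adjusted p = 0.277 for Foxm1). Deviations of same-numbered arrays from their group means correlated at 0.36, 0.41 and 0.047 over probe sets, against -0.38 to 0.030 for unlike numbers. Every array thus correlated best with its own number, but for Zeb2-KO replicate 3 only at 0.047 against 0.030 with WT replicate 2. Deviations in a group sum to 0, so these correlations are not independent of each other. In both groups replicate 1 also had the narrowest array spread and replicate 2 the widest, so the correlations cannot decide whether the numbers mark pairs. The sample titles give only a replicate number, and the numbers were not taken as pairs. Whether they mark pairs is not known. The arrays carry no detection calls, so signal over background is unknown for the 36 dim genes.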
